A study of Homo sapiens with 3 samples.

Results

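EP300 ChIP-seq peaks in naive H9 human embryonic stem cells were searched for dense clusters, defined as runs of 5 or more EP300 regions in which neighbouring regions lay at most 5 kb apart. A region entered the search if peaks of both EP300 replicates overlapped there by at least 1 bp, and overlapping peaks were merged into 1 region. Of 46263 such shared regions on chromosomes 1 to 22 and X, 4998 (10.8%) fell into 777 clusters, and the other 41265 lay singly or in runs of up to 4. In all, the shared regions formed 32090 stitched units, so the clusters were 2.42% of the units. The clusters were chosen by the peak positions themselves. Their number, size and enrichment are therefore given as a description, with no test. Coordinates are on GRCh38 and count from 1.

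The samples were 2 EP300 immunoprecipitates, with 1 input sample without antibody. H9 is an established embryonic stem cell line. All 3 were labelled wild type and were grown in the naive medium PXGL, which combines LIF at 10 ng/mL with the MEK inhibitor PD0325901, the tankyrase inhibitor XAV939 and an inhibitor of protein kinase C, on a layer of mouse embryonic fibroblasts that shares the dish with the human cells. Chromatin was fixed for 10 min in 1% formaldehyde. The 2 EP300 samples may be repeats of 1 culture, since the labels name no culture, and the input sample entered through the authors' peak calls.

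EP300 is a histone acetyltransferase and coactivator that is brought to enhancers and promoters by transcription factors, where it acetylates lysine 27 of histone H3 among other sites. Super-enhancers are groups of closely spaced enhancers with a high summed load of coactivators or of acetylated histone, and they often lie near genes that set a cell's identity. They are usually called by ranking stitched sites on summed signal, often with promoters set aside. The clusters described here were chosen by the number of regions, with promoters kept. Of the 777 clusters, 523 were among the 777 units of highest summed fold enrichment in replicate 1, and 508 in replicate 2. A sum grows with the number of regions that enter it, and the clusters were chosen by that number, so this overlap is largely set by the rule and bears on no likeness to super-enhancers. With no histone data in the analysis, the clusters are called dense EP300 clusters throughout.

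Sequences are shown for the cluster members whose letters bear on the biology: microRNAs of the miR-200 and miR-371 families, and promoters of a receptor and a homeobox gene that carried strong cluster regions. All come from RefSeq (GRCh38.p14). The miR-200 family is known for holding cells in an epithelial state, and its genes lie at 2 loci, both of which lay in clusters. Capitals mark the seed, bases 2 to 8, by which a microRNA pairs with its targets. The family divides into 2 seed groups that differ in a single seed base, and each of the 2 loci held members of both groups.
hsa-miR-200b-3p: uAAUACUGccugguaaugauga
hsa-miR-429: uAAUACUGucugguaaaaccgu
hsa-miR-200c-3p: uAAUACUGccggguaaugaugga
hsa-miR-200a-3p: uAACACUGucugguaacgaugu
hsa-miR-141-3p: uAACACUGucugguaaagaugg
The genes of miR-200b, miR-200a and miR-429 lay on the plus strand in a cluster of 16 regions (chr1:1128461-1183633). The genes of miR-200c and miR-141 lay on the plus strand of chromosome 12 in a cluster of 9 regions (chr12:6936924-6964406).

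The miR-371 to miR-373 genes, a family abundant in human pluripotent cells, lay in a cluster of 5 regions, all of promoter class (chr19:53768062-53792919). Their 3p forms were as follows, again with the seed in capitals.
hsa-miR-371a-3p: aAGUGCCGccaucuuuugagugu
hsa-miR-372-3p: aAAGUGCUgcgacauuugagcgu
hsa-miR-373-3p: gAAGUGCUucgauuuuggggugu
miR-372-3p and miR-373-3p share their seed, while that of miR-371a-3p differs.

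Promoter windows of 300 bases are shown for NOTCH1, the gene at the largest cluster, and HMX2, a homeobox gene with the highest fold enrichment among the promoter windows of listed genes that lay in a cluster. Capitals mark the GC box GGGCGG, a binding motif of SP and KLF factors, found on either strand, with overlapping matches joined.
NOTCH1, chr9:136545999-136546298, minus strand: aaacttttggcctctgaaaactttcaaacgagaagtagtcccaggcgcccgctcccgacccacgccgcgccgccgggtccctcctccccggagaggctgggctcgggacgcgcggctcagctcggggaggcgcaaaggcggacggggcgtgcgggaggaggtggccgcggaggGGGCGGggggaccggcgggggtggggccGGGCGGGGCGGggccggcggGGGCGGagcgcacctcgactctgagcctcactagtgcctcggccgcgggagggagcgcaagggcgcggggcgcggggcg
HMX2, chr10:123147886-123148185, plus strand: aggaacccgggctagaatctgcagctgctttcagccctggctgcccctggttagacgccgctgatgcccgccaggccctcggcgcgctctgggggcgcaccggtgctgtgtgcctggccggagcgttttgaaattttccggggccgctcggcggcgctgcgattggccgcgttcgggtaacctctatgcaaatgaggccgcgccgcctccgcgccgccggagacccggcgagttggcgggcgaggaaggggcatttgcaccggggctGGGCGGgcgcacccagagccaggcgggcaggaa
The NOTCH1 window held 4 GC boxes and 42 CpG dinucleotides, and the HMX2 window held 1 GC box and 35 CpG dinucleotides. The region over the NOTCH1 window had fold enrichment 24.1 in replicate 1 and 22.2 in replicate 2. That over the HMX2 window had 25.8 and 25.2. The authors' signal value of each peak was read as fold enrichment over input, as the narrow-peak layout defines it, and the highest peak of each replicate stands for a region.

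Most clusters were small, and their regions filled about as much of the span as the gaps between them. The median cluster held 6 regions (range 5 to 18) over 17.2 kb (range 6.22 to 83.2 kb), and regions covered a median of 53.8% of the span. The middle part of the distribution, from the lower to the upper quartile, ran from 13.8 to 22.3 kb. Clusters of exactly 5 regions numbered 354, and 56 clusters held 10 or more. Together the clusters spanned 14.9 Mb. Just outside the limit, 694 units of 4 regions had a median span of 10.5 kb and a promoter share of 50.4%. Just inside it, the 354 units of 5 regions had a median span of 14.1 kb and a promoter share of 44.0%.

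**Figure D1:**
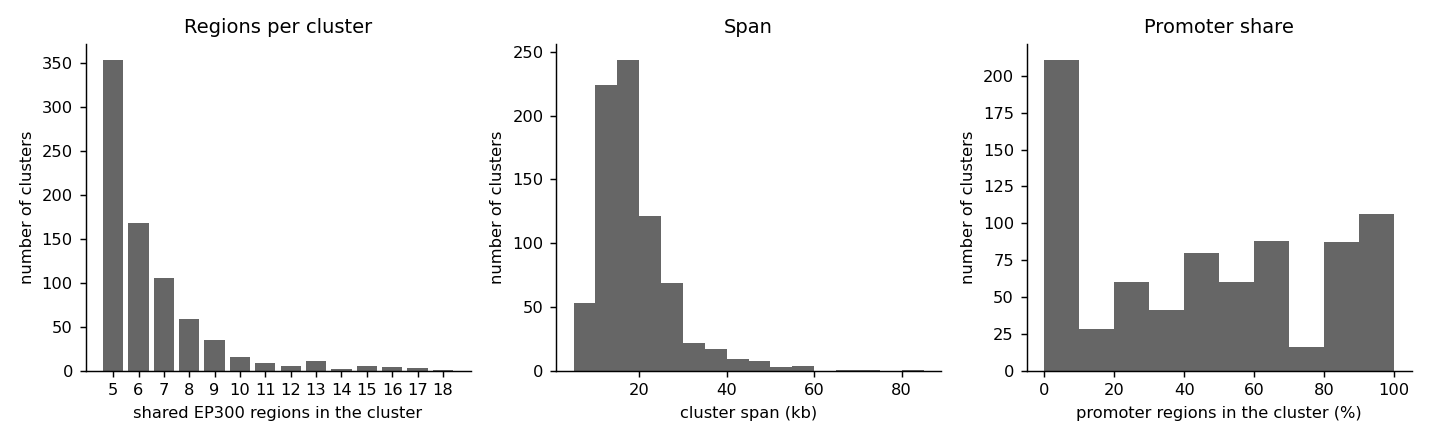
Number of dense EP300 clusters by the shared regions they hold, by span in kb and by the percentage of their regions in promoters (777 clusters in each panel). Sizes fall off from 354 clusters of 5 regions to a single cluster of 18, and the promoter share spreads from 0% to 100%.

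The enrichment of clusters was similar in the 2 replicates. Only regions with a peak in both replicates entered, so this agreement is partly set by the rule. Each cluster's own median was taken first, and over the 777 clusters these centred on 5.10 in replicate 1 and on 5.11 in replicate 2. In 759 of the 777 clusters the 2 medians differed by less than 1.5 times. Spearman's rho between the replicates was 0.742 over clusters for the median and 0.818 over the 4998 regions, as a description of points that share the same libraries. The gaps between cluster regions held 422 of the 16649 unshared peaks of replicate 1 and 431 of the 16938 of replicate 2.

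Cluster regions were less often promoters than the rest. In the authors' annotation, 43.0% of cluster regions (Wilson 95% interval 41.7 to 44.4) had a peak within 3 kb of a start site, against 56.0% (55.5 to 56.5) of the other shared regions. Within 1 kb of a start site the shares were 29.5% and 48.1%. The intervals cover counting error, and regions of 1 cluster share their neighbourhood. By peaks, distal intergenic DNA held 30.0% ± 0.12 (SD, n = 2) of cluster peaks and 20.9% ± 0.03 of the others. These peaks were kept because they overlap a peak of the other replicate, so the SD does not measure how far replicates vary. The promoter share was 57.8% for single regions, 56.0% for pairs and 38.2% for units of 9 or more regions. It did not fall at every step, since units of 6 regions had 48.7% against 44.0% for units of 5.

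Single regions, not clusters, had the highest enrichment per region. The median fold enrichment was 5.03 in cluster regions and 5.55 in the other shared regions in replicate 1, and 5.08 and 5.59 in replicate 2. Cluster regions also had the smaller promoter share, 43.0% against 56.0%, and the part of this share in the difference was not tested. Split by class, the cluster median was lower in promoter regions only. There the medians were 5.49 in clusters and 6.91 elsewhere in replicate 1, and 5.54 and 7.02 in replicate 2. Away from promoters, cluster regions were slightly higher, where the median was 4.85 in clusters and 4.59 elsewhere in replicate 1, and 4.79 against 4.61 in replicate 2. Of cluster regions, 9.50% were among the strongest 10% of the peak list of replicate 1, against 14.7% of the others, and in replicate 2 it was 9.18% against 14.6%.

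**Figure D2:**
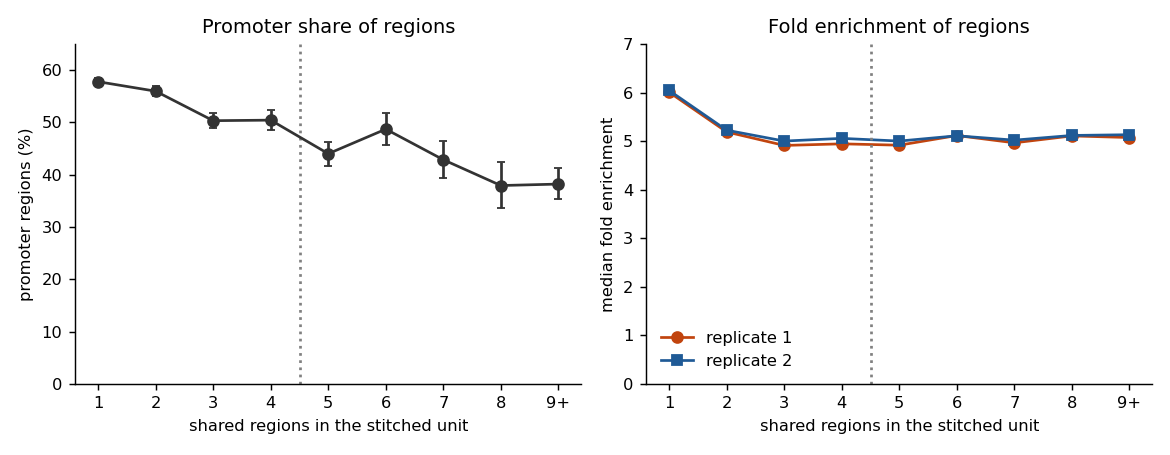
Share of regions in promoters (percent, with Wilson 95% intervals) and median fold enrichment in each replicate, by the number of shared regions in the stitched unit; the dotted line marks the limit of 5 regions that defines a cluster. The promoter share is 57.8% for single regions and 38.2% in units of 9 or more, and the median fold enrichment is highest for single regions, at 6.01 and 6.04 in replicates 1 and 2.

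The clusters fell into 3 kinds. Clusters with both promoter and other regions numbered 464 (59.7%), while 208 (26.8%, 23.8 to 30.0) had no promoter region and 105 (13.5%, 11.3 to 16.1) had promoter regions throughout. The promoter-free clusters were shorter, with a median span of 15.0 kb, against 18.4 kb for the mixed ones. Of the promoter-free clusters, 63 (30.3%) lay whole within a coding gene body by RefSeq coordinates and 134 (64.4%) overlapped no coding gene. Over all clusters, 155 lay whole within a coding gene and 272 overlapped none. The gene that the authors' annotation gave, the one with the nearest start site, was protein-coding for 49.6% of assignments in clusters and for 60.6% elsewhere. Names with no match in RefSeq, whose class is unknown, made up 28.8% of assignments in clusters and 20.9% elsewhere, so the coding shares cannot be compared closely.

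The largest cluster held 18 regions over 83.2 kb at NOTCH1, the gene of a cell-surface receptor that is cleaved on ligand binding to free a transcriptional activator (chr9:136544166-136627326). Its first region, 11586 bp long, covered the NOTCH1 promoter. The regions of next highest enrichment lay in intergenic DNA, with fold enrichment 18.7 and 17.7 (8884 bp long) and 17.8 and 20.6 (7738 bp long) in replicates 1 and 2. The 12 regions farthest from NOTCH1 were assigned to the unnamed gene ENSG00000279141 and 6 to NALT1, a non-coding RNA gene beside NOTCH1. In replicate 1 the regions ranged from 2.72 to 24.1, and in replicate 2 from 2.496 to 22.2, so strong and weak sites stood side by side. Its median was 6.73 in replicate 1 and 7.21 in replicate 2. It held 10 to 23 regions under the alternative settings tried.

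PODXL, the gene of a sialomucin carried on the surface of human pluripotent cells, had the largest promoter-free cluster, with 16 regions in 55.4 kb of intergenic DNA (chr7:131575360-131630750). The authors' annotation gave 11 of them to PODXL and 5 to the pseudogene EEF1B2P6. A pair of neighbouring regions stood above the rest, with fold enrichment 19.4 and 26.7 in replicate 1 and 17.5 and 23.3 in replicate 2. The region beside them, assigned to EEF1B2P6, had 10.5 and 9.41. The cluster held 28 regions with peaks of replicate 2 alone and 17 with those of replicate 1 alone, and 6 where a fold enrichment of at least 5 was required.

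The cluster at miR-200b, miR-200a and miR-429 also held 16 regions, of which 11 were promoter regions. Its median fold enrichment was 3.74 in replicate 1 and 3.96 in replicate 2, among the lower values of the large clusters. A region of 10961 bp that ended just before the mature miR-200b sequence reached 16.3 and 17.0, and an exonic and intergenic region assigned to the non-coding gene LINC01342 reached 25.5 and 25.4. The region over miR-200a and miR-429 had 3.24 and 3.26, and the 5 regions assigned to TTLL10, a tubulin ligase-like gene, lay between 3.22 and 5.41 in replicate 1. At the other miR-200 locus the strongest region, 6011 bp long, covered the mature sequences of miR-200c and miR-141, with fold enrichment 18.99 and 15.3. The authors' annotation gave it to PTPN6, a phosphatase gene upstream. This cluster of 9 regions also held promoters of ATN1 and C12orf57. The cluster of 16 regions at miR-200b was lost where regions needed a fold enrichment or -log10 q-value of at least 5, or where promoters were set aside.

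**Figure D3:**
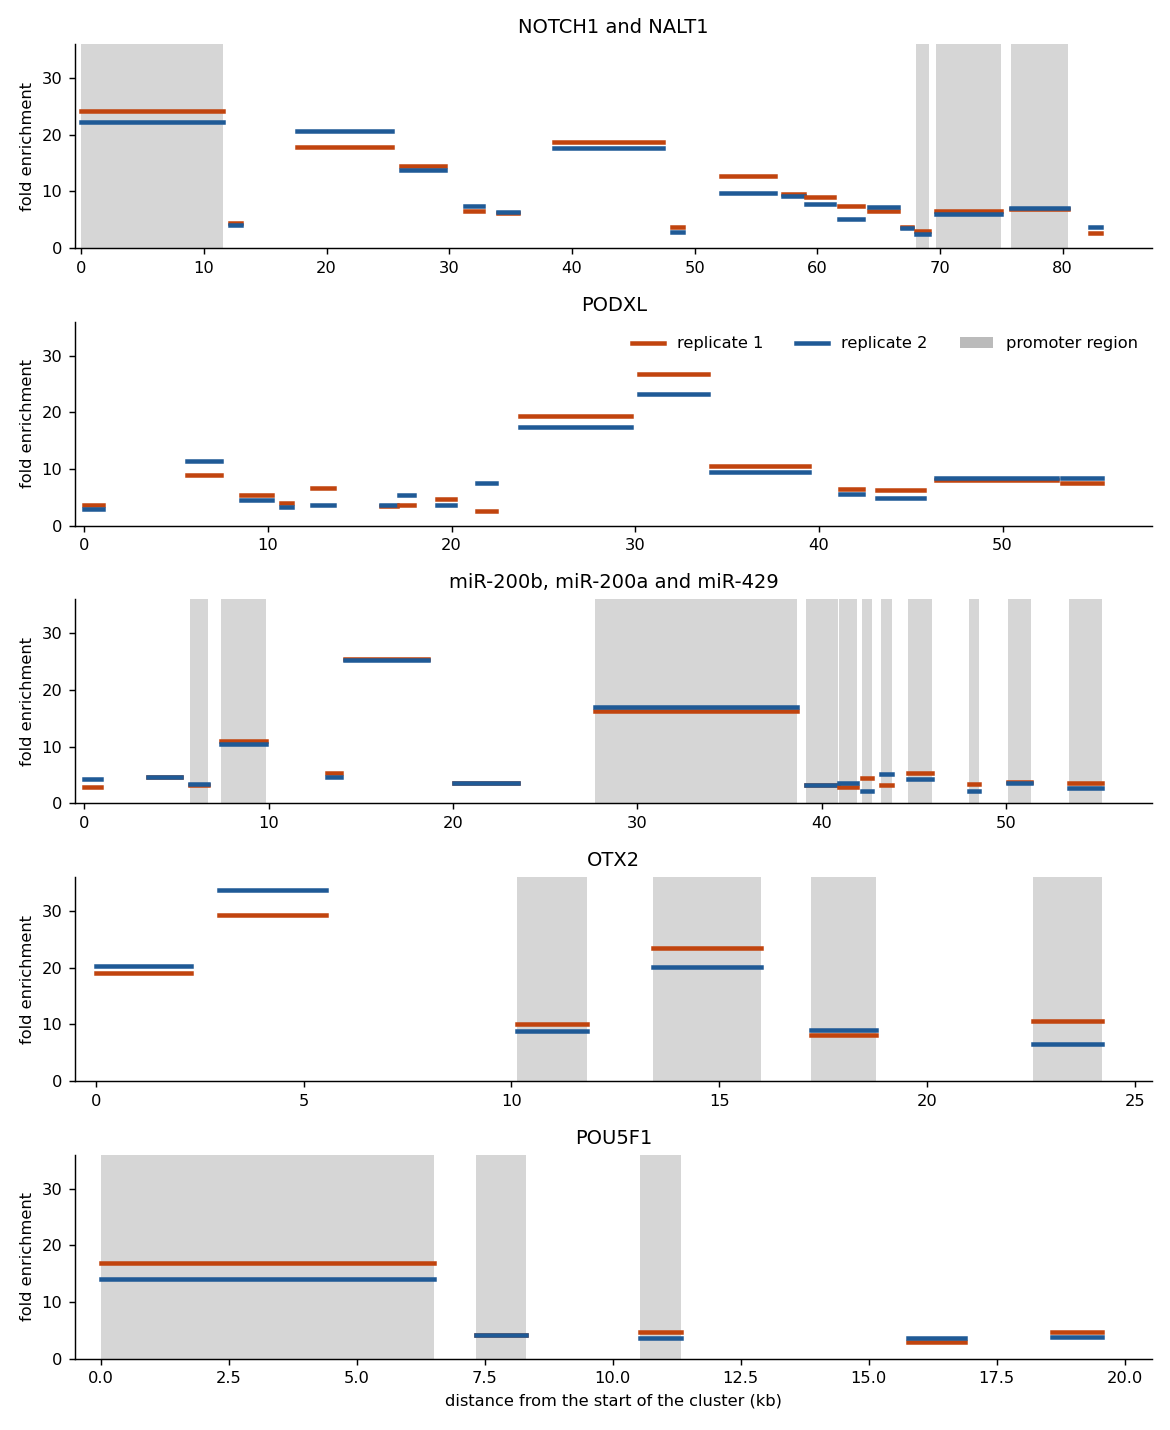
Fold enrichment of each shared region in 5 named clusters, by distance from the cluster's start in kb; horizontal bars span each region at its value in replicate 1 (orange) and replicate 2 (blue), and grey marks promoter regions. The NOTCH1 cluster runs from 2.72 to 24.1 in replicate 1, PODXL has no promoter region, and the 6 regions at OTX2 lie between 6.54 and 33.8.

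Others of the 20 clusters with most regions lay at genes of several kinds. A cluster of 17 regions at SEMA4C, a semaphorin gene, and FAM178B had median fold enrichment 6.63 and 5.84 in replicates 1 and 2. Another of 17 lay within CLYBL, a mitochondrial enzyme gene, at 4.86 and 5.31, and 1 more of 17, near the transporter gene SLC47A1, had 4.71 and 4.32. At the interferon-induced genes IFITM1, IFITM2 and IFITM3 with IFITM5, 13 of 16 regions were promoter regions, and the medians were 7.33 and 7.16. IFITM1 to IFITM3 are close copies, so reads may be placed uncertainly among them. GSE1, a gene of a histone deacetylase corepressor complex, held 16 regions within its body, at 5.80 and 5.76.

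Clusters of 15 regions lay at ARMC9 and B3GNT7, beside ZFP36L2, an RNA-binding protein gene that promotes messenger RNA decay, at TCERG1L-AS1, at BAHCC1, a chromatin protein gene, and near DNAJB6, a chaperone gene. Beside ZFP36L2 the medians were 6.28 and 6.32, and at TCERG1L-AS1 they were 4.34 and 5.69. Histone genes filled a cluster of 14 regions on chromosome 6 with H2BC6, H4C4, H4C5, H2AC7 and H2BC8, in which 13 regions were promoter regions. The strongest region of this cluster had 9.46 in replicate 1, and the strongest in replicate 2 had 8.62. Many histone genes are near-identical copies too, so reads may be placed uncertainly there. Clusters of 13 regions included RBFOX3, a neuronal splicing factor gene, HES5 with TNFRSF14, NACC2 with TMEM250, EXOC3L4 with TNFAIP2, and KCNQ1-AS1 within the imprinted KCNQ1 locus. A cluster of 14 regions on chromosome 7 (408972 to 465020) had no named gene.

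The clusters with the highest median fold enrichment held 5 or 6 regions, and such medians rest on few values. They do not show that enrichment falls with size. The median over regions was 4.92 and 5.00 in units of 5 regions, in replicates 1 and 2, and 5.07 and 5.13 in units of 9 or more. OTX2, a homeobox gene of the primed state and the anterior neural plate, had 5 of the 6 regions of a cluster. The medians of this cluster were 14.8 and 14.6 in replicates 1 and 2, the highest median in replicate 1. Its strongest region lay just downstream of the gene (chr14:56796896-56799476), with fold enrichment 29.2 and 33.8, above that of its strongest promoter region, 23.5 and 20.1. With promoters set aside, or stitching at 2500 bp, fewer than 5 regions remained in 1 unit there. BCOR, a gene of a Polycomb-type corepressor complex, had 2 of the 5 regions of a cluster at 14.3 and 15.5, the highest in replicate 2. The unnamed gene ENSG00000288856 was assigned 3. ACTB, the beta-actin gene, had 4 of the 6 regions of a cluster at 13.0 and 13.1. The neighbours ZIC2 and ZIC5, zinc finger genes of the primed state, had 3 and 2 of the 6 promoter regions of a cluster at 12.5 and 12.6. SHROOM1 and SOWAHA had 3 and 1 of the 5 promoter regions of a cluster at 11.7 and 12.2.

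The densest clusters were short, which is largely set by the measure, the number of regions divided by the span. At FRMPD3-AS1 on the X chromosome, 5 regions lay within 6.22 kb, or 8.04 per 10 kb, at medians of 3.68 and 4.07. LINC01060 had 7.46 per 10 kb, ZCCHC13 7.38, CGNL1 6.94 and a cluster inside ELF2 6.80. The median over all clusters was 3.46 regions per 10 kb. The clusters with regions at most promoters, apart from those at miR-200b and the histone genes, included one on chromosome 16 with CLDN6 and CLDN9, claudin genes, PKMYT1, TNFRSF12A and HCFC1R1.

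Genes of pluripotency were examined next. Of all 19974 protein-coding genes, 701 (3.51%) were assigned at least 1 cluster region, or 4.86% of the 14411 with any shared region. A gene with at least 1 assigned cluster region is said to have a cluster, even where other genes hold most of its regions. Of the shared pluripotency list, 5 of 20 genes had a cluster, namely PODXL, POU5F1, LEFTY1, LEFTY2 and CRIPTO (TDGF1). Of the primed list it was 6 of 21, namely OTX2, ZIC2, ZIC5, HMX2, SALL2 and DNMT3B, and of the naive list 1 of 23, VENTX. A shared region of any kind was assigned to 17 of the 23 naive genes, to 21 of the 21 primed genes and to 20 of the 20 shared pluripotency genes. These lists were chosen with earlier results of these data known, so the counts are descriptions beside the level of all coding genes.

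POU5F1, which encodes the core pluripotency factor OCT4, had 5 regions over 19.6 kb in a cluster shared with PSORS1C3. The promoter region, 6514 bp long, had fold enrichment 16.9 in replicate 1 and 14.0 in replicate 2, and the other 4 lay between 2.90 and 4.75 in replicate 1 and between 3.58 and 4.15 in replicate 2. The cluster thus rested on 1 strong region with weak neighbours. Raising the limit to 5 for either fold enrichment or -log10 q-value, stitching at 2500 bp, or setting promoters aside left fewer than 5 regions there.

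LEFTY1 and LEFTY2, neighbouring genes for inhibitors of NODAL signalling, each had a cluster of 5 regions, that of LEFTY1 shared with TMEM63A. The LEFTY1 cluster had medians of 9.67 and 10.8 in replicates 1 and 2, and the LEFTY2 cluster 5.11 and 3.81. CRIPTO, which encodes a NODAL co-receptor, had 2 of 5 regions of a cluster with LRRC2, at 9.95 and 12.7. In the primed list, SALL2 had the largest cluster, with 13 regions over 25.3 kb at 5.36 and 5.58, and HMX2 shared 6 regions with HMX3 and BUB3 at 10.2 and 9.34. DNMT3B, a de novo DNA methyltransferase gene, had 4 of 9 regions of its cluster. VENTX lay in a cluster of 6 regions together with UTF1, another pluripotency-associated gene, and the miR-202 host gene, at 10.3 and 10.8. With peaks of replicate 2 alone it held 23 regions, and with those of replicate 1 alone 10.

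**Figure D4:**
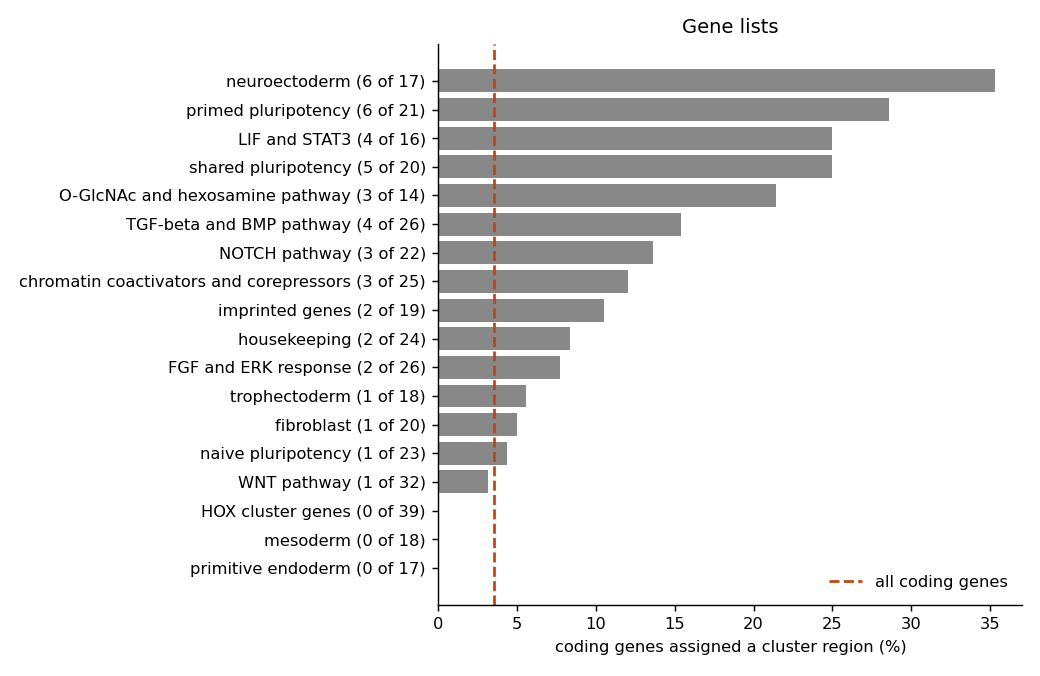
Percentage of the protein-coding members of each gene list that were assigned a cluster region, with the number of genes beside each name; the dashed line is the level of all 19974 coding genes, 3.51%. Neuroectoderm, primed and shared pluripotency, and LIF and STAT3 genes have the highest shares. The HOX, mesoderm and primitive endoderm lists have none, which does not set them apart from the level of all coding genes.

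Among lineage lists, 6 of 17 neuroectoderm genes had a cluster. These were the transcription factor genes SOX1, PAX6, LHX3, ZIC1 and HES5, and NES, an intermediate filament gene of neural progenitors. ZIC1 was assigned only 1 of the 5 regions of a cluster that lay within ZIC4, and HES5 3 of the 13 regions of its cluster. PAX6 had 6 promoter regions in 14.9 kb at medians of 4.12 and 4.80 in replicates 1 and 2, and LHX3 had 8 regions at 3.34 and 3.93. SOX1 had a cluster of 7 regions whose strongest SOX1 region reached 21.5 and 13.3. In the trophectoderm list 1 of 18 had a cluster, GATA3, with 5 regions at 5.74 and 5.63. None of the 17 primitive endoderm and 18 mesoderm genes had a cluster, although 15 and 16 of them had a shared region. Over all coding genes the share with a cluster was 3.51%. The Wilson intervals of the primitive endoderm and mesoderm lists reached up to 18.4% and 17.6%. Finding no cluster therefore does not set these lists apart from all coding genes.

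Signalling genes followed. In the LIF and STAT3 list 4 of 16 genes had a cluster: LIF, the cytokine itself, SOCS3, its feedback inhibitor, PIM1, a kinase induced by STAT3, and GBX2, a homeobox gene induced by STAT3 in mouse stem cells. PIM1 had 7 regions and no promoter region, at 5.80 and 7.13, and LIF shared 8 regions with its neighbour OSM at 5.35 and 4.89. In the NOTCH list 3 of 22 genes had a cluster, the receptor gene NOTCH1, LFNG, which encodes a glycosyltransferase that modifies NOTCH receptors, with 9 regions, and NRARP, a feedback inhibitor gene, with 6 at 9.51 and 10.2. The TGF-beta and BMP list had 4 of 26: ID1 and ID3, whose products block DNA binding by helix-loop-helix factors, SMAD7, an inhibitory SMAD gene, and SKIL, a SMAD corepressor gene. FGF and ERK response genes had 2 of 26, FGFR3 and JUNB. ID1 was assigned 2 of the 10 regions of its cluster, and JUNB 1 of 6. WNT genes had 1 of 32, the receptor gene FZD2, near the level of all coding genes, 3.51%. Wilson intervals were 10.2 to 49.5% for LIF and STAT3, 4.75 to 33.3% for NOTCH and 6.15 to 33.5% for TGF-beta and BMP. Those of FGF and ERK (2.14 to 24.1%) and WNT (0.554 to 15.7%) took in 3.51%, so neither list is set apart. Of coding genes with any shared region, 4.86% had a cluster, a level the NOTCH interval also took in. With so few genes, and lists chosen with earlier results known, these counts are descriptions.

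In the O-GlcNAc and hexosamine list, 3 of 14 genes had a cluster (21.4%, Wilson interval 7.57 to 47.6), beside 3.51% of all coding genes. With so few genes, and a list chosen with earlier results known, the count is a description. GFPT2, an enzyme gene at the entry of the hexosamine pathway, had 5 regions at 4.51 and 5.25, NAGK, an N-acetylglucosamine kinase gene, had 5 regions without a promoter region at 4.97 and 5.43, and HK1, a hexokinase gene, had 9 at 5.88 and 5.83. OGA, whose product gives the series its title, had 1 shared region, in a unit of 2, and OGT had none assigned. EP300 itself had a single region.

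Among the imprinted genes, 2 of 19 coding genes, IGF2 and CDKN1C, had a cluster, and so had the non-coding KCNQ1OT1. IGF2 was assigned 2 of the 5 regions of its cluster, which reached 5.07 and 5.59 in replicates 1 and 2. By RefSeq coordinates that cluster overlapped INS-IGF2, INS and TH but not IGF2 itself. CDKN1C, a cell cycle inhibitor gene, had 2 of the 5 promoter regions of a cluster with SLC22A18 at 8.68 and 9.44. Of the fibroblast markers 1 of 20 had a cluster, COL5A1, with 11 regions at 3.98 and 3.61. Of 39 HOX genes none had a cluster (Wilson interval up to 8.97%), and 8 had a shared region. By family, chosen after the values were seen, 26 of 74 histone genes (35.1%) and 11 of 517 ZNF genes (2.13%) were assigned a cluster region. None of 392 olfactory receptor genes was, of which 16 had any shared region. Over all coding genes the share was 3.51%, or 4.86% of those with any shared region, and the ZNF share lay near it. The histone cluster of 14 regions overlapped 8 coding genes in 37.5 kb, so neighbouring histone genes share clusters and are not separate counts.

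The size of many named clusters rested on the demand for peaks in both replicates. Of 72 named clusters, 20 changed in number of regions by over 1.5 times when peaks of 1 replicate were used alone, and these 20 grew. With replicate 1 alone 71 of the 72 remained clusters, and with replicate 2 alone 72. With replicate 2 alone, the cluster within CLYBL held 29 regions, that at BAHCC1 31, at HES5 20, at KCNQ1-AS1 23 and at ID1 20. LIF had 23 there, LFNG 16, BCOR 14, PAX6 11 and SMAD7 10. With replicate 1 alone, the cluster at ARMC9 and B3GNT7 held 25 regions, that near DNAJB6 25, at NACC2 30, at BAHCC1 28 and at ID1 18. FGFR3 had 16 there, NRARP 11, IGF2 10 and LEFTY1 9. A promoter-free cluster on chromosome 5 with no named gene, of 13 shared regions, had 26 there.

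MicroRNA genes were examined by RefSeq coordinates. Of 1911 on these chromosomes, 52 lay in the spans of 39 clusters. By another measure, assignment of a cluster region, 701 of 19974 coding genes (3.51%) had a cluster. The microRNA count is a description and is not read as a result about microRNA genes. Beside those shown above, the microRNA genes in clusters included let-7a-3 and let-7b. These lay in a cluster of 7 regions on chromosome 22 (46103291 to 46124047), with medians of 4.17 and 4.25 in replicates 1 and 2. let-7 microRNAs are opposed by LIN28 in pluripotent cells. The strongest of these regions, with 13.4 and 14.0, lay in intergenic DNA beyond let-7b. miR-205 with its host gene had 6 promoter regions within 9.09 kb at 4.65 and 3.48. The miR-371 to miR-373 cluster had 8.37 and 7.53.

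Promoter sequence was compared without a test. Among 15812 coding genes with a window in the RefSeq table, cluster regions overlapped 329 windows and other shared regions 10378. The median GC content was 67.7% in cluster windows, 66.7% in windows of other shared regions and 50.7% in windows with no shared region. The median count of CpG dinucleotides was 25 in cluster windows, 27 under other regions and 5 with no region. The GC box GGGCGG was found on either strand in 66.9% of cluster windows, 74.4% of windows under other shared regions and 58.5% of all windows.

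Other motifs were rarer. The octamer ATGCAAAT, bound by POU factors, was in 15 of 329 cluster windows (4.56%), 1.12% of windows under other shared regions, 2.70% of windows with no shared region and 1.70% of all windows. HMX2 and NRARP were among the listed genes with an octamer. Histone genes, 26 of which were assigned a cluster region, were not counted apart. Their part in the 15 windows is therefore unknown, and a link of the clusters to POU factors was not tested. The cAMP response element TGACGTCA was in 18 cluster windows (5.47%), 3.06% under other shared regions and 2.59% of all. The TFAP2 motif GCCNNNGGC was in 36.8% of cluster windows, 34.7% under other shared regions and 28.3% of all. The TEAD motif CATTCCA was in 2.43% of cluster windows, 2.12% under other shared regions and 2.91% of all. All were searched on both strands, and a match is a description of letters, not a bound site. Overlap between different motifs was not removed.

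Clusters lay near chromosome ends more often than other regions. Within 5 Mb of an end lay 265 of 777 clusters (34.1%, 30.9 to 37.5), holding 35.6% of cluster regions, against 16.1% of the other shared regions. Of the 20 clusters with most regions, 13 lay there. Ends were taken as the first position and the last annotated position of each chromosome, so short arms without assembled sequence count as an end. Shared regions were also denser there, at 36.6 per Mb within 5 Mb of an end, against 13.5 per Mb beyond. Whether this density accounts for the position of the clusters was not tested.

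**Figure D5:**
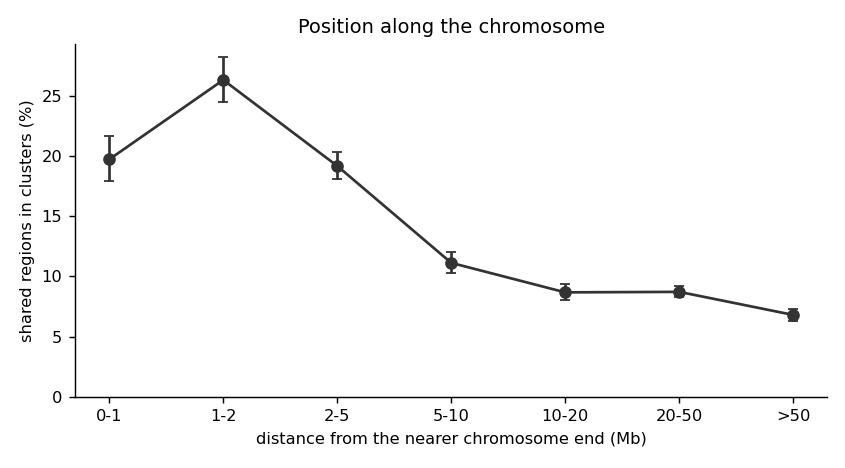
Share of shared EP300 regions that lie in clusters, by distance from the nearer chromosome end in Mb, with Wilson 95% intervals that cover counting error. The share is 26.3% at 1 to 2 Mb and 6.80% beyond 50 Mb.

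The share of a chromosome's regions in clusters ranged from 6.30% on chromosome 3 and 6.69% on chromosome 18 to 14.5% on chromosome 22 and 15.5% on chromosome 20. Chromosome 19, rich in genes, had 37 clusters and 9.14%, and the X chromosome had 27 and 11.4%. By length, chromosome 22 had most clusters, 6.69 per 10 Mb, and chromosome 3 fewest, 1.16.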

How the data were processed

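The authors deposited 1 narrow-peak table for each EP300 sample, called against input by the names of the tables and annotated with ChIPseeker. The submitters' processing notes name fastp 0.19.11 and GRCh38. The labels and headers name no aligner, peak caller or threshold. Per the file headers, each row is a summit with a signal value, read here as fold enrichment over input (ratio) from the narrow-peak layout, and with -log10 p-values and q-values. The deposited score is 10 times the -log10 q-value and, like the -log10 p-value, was not used. The largest q-value was 0.0497 in replicate 1 and 0.0498 in replicate 2. The tables give peaks and not reads, so that depth is unknown.

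Rows of 1 interval were joined, keeping the highest fold enrichment, which left 65276 and 64896 peaks in replicates 1 and 2. Peaks of both replicates that overlapped by at least 1 bp were merged, and regions with gaps of up to 5000 bp were stitched. The stitching was tested on simulated data. A region was a promoter region if any of its peaks was within 3 kb of a start in the authors' annotation, which counts starts of non-coding genes and microRNA hairpins. Of 29697 gene names, 22330 matched RefSeq (GRCh38.p14). Genes named are those of the largest, longest, densest and most enriched clusters, of clusters with most promoters or none, and list members, of which some are not reported here. The clusters and the gene lists were chosen with earlier results of these data known. Python 3.11.15, pandas 2.3.3 and scipy 1.17.1 were used.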

Additional observations from a re-analysis of the deposited data

Results flagged for a closer look

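Unplaced sequences, which lie outside chromosomes 1 to 22 and X and entered no comparison, held 36 shared EP300 regions. They were singled out as signal above a floor of 3 regions in data that the comparisons did not use. None of their stitched units reached 5 regions, and the largest held 4.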

How the results depend on the processing

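The number of clusters depended strongly on the settings, while an overlap of at least 50% of the shorter peak gave 761 clusters, a median span of 16.9 kb, a promoter share of 44.0%, a median fold enrichment of 5.13 and 687 coding genes. Main values are 777 clusters, 17.2 kb, 43.0%, 5.06 (mean of the 2 replicates) and 701 genes. Stitching at 2500 bp gave 343 clusters, 13.4 kb, 38.5%, 5.29 and 228 genes, and the longer distance often used for super-enhancers gave 1650 clusters, 30.5 kb, 47.9%, 4.98 and 2286 genes. A fold enrichment of at least 5 left 58 clusters, 19.7 kb, 53.7%, 8.61 and 77 genes. A -log10 q-value of at least 5 left 203 clusters, 18.96 kb, 49.9%, 6.93 and 227 genes. Without promoter regions there were 281 clusters, 15.4 kb, 4.85 and 147 genes. At least 4 or at least 8 regions gave 1471 and 150 clusters, starts within 1 kb gave 29.5%, and counting summits in place of regions, added after seeing the data, gave 1876. With peaks of 1 replicate alone there were 1716 to 1740 clusters, 14.8 to 15.6 kb, 40.6% to 40.9%, 4.29 to 4.30 and 1327 to 1348 genes. Stricter limits leave fewer regions to stitch, and the cause of the other shifts was not tested.

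In every setting that kept promoter regions, cluster regions had the lower promoter share and the lower median fold enrichment. Without promoter regions the order of the medians turned, at 4.85 in clusters and 4.60 elsewhere. From 28.5% to 40% of clusters lay within 5 Mb of a chromosome end. Of 72 named clusters, 17 held at a fold enrichment of at least 5 and 42 at 2500 bp. No paired analysis was possible because the series has 1 group of 2 EP300 samples and no contrast. Depth is unknown, and it limits which weak regions were called.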

Other observations

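Clusters were richer in summits than their regions alone show. Cluster regions held a mean of 1.67 summits in replicate 1 and 1.63 in replicate 2, against 1.35 and 1.32 in the other shared regions. The median cluster had 9 summits in each replicate, and the richest had 57 and 55. Conversely, 82 single regions in replicate 1 and 65 in replicate 2 held 5 or more summits within 1 merged region and so were not clusters. The highest fold enrichments of cluster regions averaged over both replicates, chosen after their values were seen, lay at the promoters of FKBP5, the gene of a chaperone that binds steroid receptors (fold enrichment 35.8 and 28.7 in replicates 1 and 2), and TINAGL1 (30.1 and 33.3). Close behind came regions outside promoters, assigned to the unnamed gene ENSG00000268864 (33.0 and 30.1) and to OTX2 (29.2 and 33.8).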
